A study of Mus musculus with 13 samples.

Results

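The cytosolic ribosomal protein genes of mouse brain are described here across the 3 groups of the study. They were taken as the protein-coding genes whose symbol starts with Rpl or Rps followed by a digit, together with Rpsa, Rplp0, Rplp1 and Rplp2, if their mean over the 13 libraries reached 1 FPKM. FPKM counts sequenced fragments per kilobase of gene, scaled to the mapped fragments of the library. Of 37636 gene IDs in the deposited table, 13905 reached that mean and were tested, and 82 of them are ribosomal protein genes by this rule. They comprise 46 genes of the large subunit, 33 of the small subunit and 3 of the ribosomal stalk. The rule left out 213 genes with a pseudogene symbol, 10 S6 kinase genes, 6 genes annotated as other than protein-coding, Rps19bp1, and the 2 genes Rpl3l and Rpl39l, whose means were 0.298 and 0.0611 FPKM. No measured difference between groups entered the choice.

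All libraries came from brain of male Balb/c mice 6 to 8 weeks old, with no brain region named in the labels. Con, the normal condition without compound, gave 4 libraries. Mod gave 5 libraries after 24 h at 8000 m without compound, and 6-OHG gave 4 after the same exposure with 6-OHG, a compound named only by this code and given with no dose or route. No group received 6-OHG without altitude. The labels do not say that replicates are separate animals, so the p-values measure the spread between these libraries, which may be technical. In bulk tissue, fewer cells of a type and less RNA per cell cannot be told apart.

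The cytosolic ribosome is built in the nucleolus from ribosomal RNA and one copy of nearly every ribosomal protein, the stalk proteins P1 and P2 excepted. Messenger RNAs of ribosomal proteins begin with a C followed by a run of pyrimidines, the terminal oligopyrimidine (TOP) motif, through which mTOR complex signalling and the RNA-binding protein LARP1 control their translation and stability. These messages are short and abundant, and many were copied back into the genome as intronless processed copies, so that short reads from a gene and from its copies are hard to separate. Neurons use ribosomes in the cell body, in dendrites and near synapses.

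The sequences around the annotated transcription start are shown for some of these genes, and their pyrimidine runs differ in length and position. Each line gives 20 bases before the start and 25 from it on, read 5′ to 3′ on the gene's strand, from RefSeq on build GRCm38.p6, and the capitals mark the longest run of C and T in that stretch. Rps27, Rps28, Rpl38 and Rps21 are among the largest falls with 6-OHG against Mod. Rps27rt, an intronless copy of Rps27 that is annotated as protein-coding, and Rpl12, Rps23 and Rps25, which rose in Mod, were added after their values were seen. The stretches are chr3:90213624-90213668 (minus strand) for Rps27, chr9:114982715-114982759 (minus) for Rps27rt, chr17:33824538-33824582 (minus) for Rps28, chr11:114668560-114668604 (plus) for Rpl38, chr2:180257359-180257403 (plus) for Rps21, chr2:32961692-32961736 (plus) for Rpl12, chr13:90923102-90923146 (plus) for Rps23 and chr9:44407694-44407738 (plus) for Rps25.
Rps27: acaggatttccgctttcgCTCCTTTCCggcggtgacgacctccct
Rps27rt: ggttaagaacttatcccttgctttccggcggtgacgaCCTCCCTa
Rps28: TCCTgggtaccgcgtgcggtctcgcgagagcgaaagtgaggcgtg
Rpl38: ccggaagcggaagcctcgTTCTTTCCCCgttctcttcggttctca
Rps21: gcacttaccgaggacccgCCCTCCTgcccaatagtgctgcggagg
Rpl12: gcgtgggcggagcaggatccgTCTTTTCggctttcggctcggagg
Rps23: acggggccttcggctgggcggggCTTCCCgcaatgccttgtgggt
Rps25: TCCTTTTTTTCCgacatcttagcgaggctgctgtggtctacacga
The run is 10 bases long in Rpl38 and 9 in Rps27 and begins just before the annotated start in both. It lies farther upstream in Rps25, with 12 bases, and the longest run in Rps28 has 4. It has 7 bases in Rps21, Rpl12 and Rps27rt and 6 in Rps23. In Rps27rt this longest run begins only at base 18 from the start, but a shorter run that opens with a C begins at the start itself. Of the stretches shown, only those of Rpl38, Rps27 and Rps25 hold a run of at least 8. The stretches of Rps27 and Rps27rt share 24 identical bases in a row. A window was found for 62 of the 82 genes. A run of at least 8 pyrimidines between 30 bases before and 50 after the start was present in 48 of the 62 (77.4%), against 31.4% of 14452 protein-coding genes with a window. The ETS core CCGGAAG, searched on both strands in the whole window from 250 bases before to 50 after the start, was found in 40.3% of the 62 and 15.1% of the protein-coding genes. For the YY1 core AAGATGG the shares were 16.1% and 7.38%, and for TATAAA 11.3% and 11.4%. The 82 genes had to reach 1 FPKM. Among the 9447 protein-coding genes tested with a window, the shares were 31.1% for the run, 19.6% for ETS, 8.55% for YY1 and 8.46% for TATAAA. These matches are letters in a window and not measured sites.

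Column sums ranged from 268208 to 312908 FPKM, of which genes of the mitochondrial genome took 20.6% to 28.7%. The depth behind a value is unknown. Neuron, astrocyte, oligodendrocyte and microglia markers were all above 0 in every library, and the summed neuron markers ranged from 747 to 894 FPKM in Con, 743 to 818 in Mod and 725 to 885 in 6-OHG. Across genes that are no ribosomal protein genes, the log2 value changed per doubling of exon length by -0.0103 to 0.015 in Con, by -0.0341 to -0.0142 in Mod and by 0.0262 to 0.0408 in 6-OHG, so short genes stood higher in Mod and lower in 6-OHG libraries. Ribosomal protein genes are short, their median exon length being 1780 bases and that of the genes tested 4100. Exon length is the union of all annotated exons of a gene, so it can exceed the length of its message. Values with this trend removed are given beside the main results. Scaling also moved the balance of calls over all genes: rises made up 58.7% of the calls for Mod against Con, but 40.7% with columns rescaled to equal sums. For 6-OHG against Mod 45.5% became 78.3%, and for 6-OHG against Con 53.2% became 64.9% with equal sums over nuclear genes. Under those rescalings no ribosomal protein gene was called against the direction of the others, except Rpl7l1 in 6-OHG against Con.

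At their own loci the 82 genes had means from 1.23 to 275.5 FPKM over the 13 libraries, with a median of 39.8. These means are levels per length at the own locus, and their order changes where processed copies are added. The highest were Rplp1 at 275.5 FPKM, a stalk protein, Rps15 at 243.8, Rpl4, a protein of the peptide exit tunnel, at 183.4, and Rpl19 at 168.2. The lowest were Rpl29 at 1.23 FPKM, Rpl21 at 1.55, Rpl35a at 1.61 and Rpl26 at 2.005. Between these ends, 66 genes lay from 5 to 100 FPKM, 10 at 100 or more and 6 under 5. No gene was listed at 0 in any library.

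The low levels of some genes went together with high levels of their processed copies. By sequence, 1041 listed pseudogene IDs were matched to 81 of the 82 genes, and Rpl8 had no match. A match was an alignment of at least 70% of the copy at 85% identity or more. With the FPKM of the copies added, Rpl29 stood at 200 FPKM instead of 1.23, Rpl21 at 339, Rpl35a at 207, Rpl26 at 307 and Rps2 at 375 instead of 9.96. A single copy of Rpl26, Gm15772, held 299 FPKM and matched the gene's transcript at 99.5% over its whole length. For Rps2, which encodes a protein of the decoding region, the copies Rps2-ps10 and Rps2-ps13 held 189 and 87.8 FPKM. Of the 82 genes, 29 had under 50% of the summed value at their own locus, 9 of them under 10%, and 19 had at least 90%. How reads matching several loci were assigned is not given in the sources used here, so a value at 1 locus and at its copies cannot be told apart as expression of either. With copies added, the range of means became 7.02 to 375 FPKM with a median of 82.2, and 31 genes rather than 10 stood at 100 FPKM or more. These sums add FPKM over loci of unlike length. The median exon length was 483 bases for the copies that reached 1 FPKM and 1776 for the 82 genes. A read adds more FPKM at a shorter locus, so the shares at the own locus are not shares of reads.

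**Figure D1:**
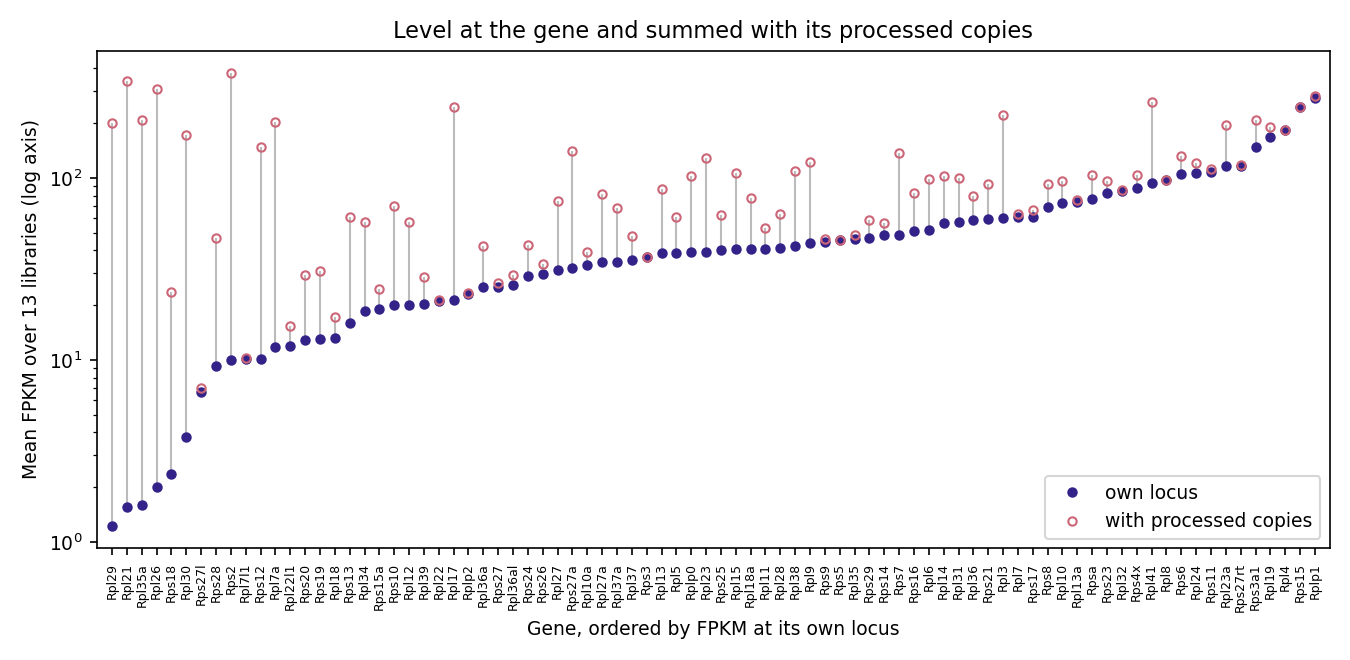
Mean FPKM over 13 libraries (log axis) of each of the 82 genes at its own locus (filled) and with the values of its processed copies added (open), genes ordered by the level at their own locus. The lowest genes, such as Rpl29 at 1.23 and Rpl21 at 1.55 FPKM, lie at 200 and 339 FPKM with copies added, while Rplp1, Rps15 and Rpl4 barely move.

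Summed over the 82 genes, ribosomal protein transcripts were highest in Mod and lowest in 6-OHG. The Con libraries held 4273, 4260, 3973 and 4497 FPKM. The Mod libraries held 4739, 4430, 4963, 4615 and 4727 FPKM, and the 6-OHG libraries 3246, 3997, 3645 and 3559. The group means were 4251 ± 215 (SD, n = 4), 4695 ± 195 (n = 5) and 3612 ± 309 (n = 4). The highest 6-OHG library was below the lowest Mod library, whereas the ranges of Con and Mod overlapped, as did those of Con and 6-OHG. As a share of nuclear FPKM the 82 genes held 1.97% in Con, 2.12% in Mod and 1.73% in 6-OHG. The copies followed at the same scale, with 4272 ± 120, 4643 ± 228 and 3671 ± 311 FPKM. The ratio of large to small subunit FPKM was 1.42 ± 0.0826 in Con, 1.43 ± 0.0623 in Mod and 1.38 ± 0.0450 in 6-OHG, so differences between groups in this ratio were within its spread between libraries.

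**Figure D2:**
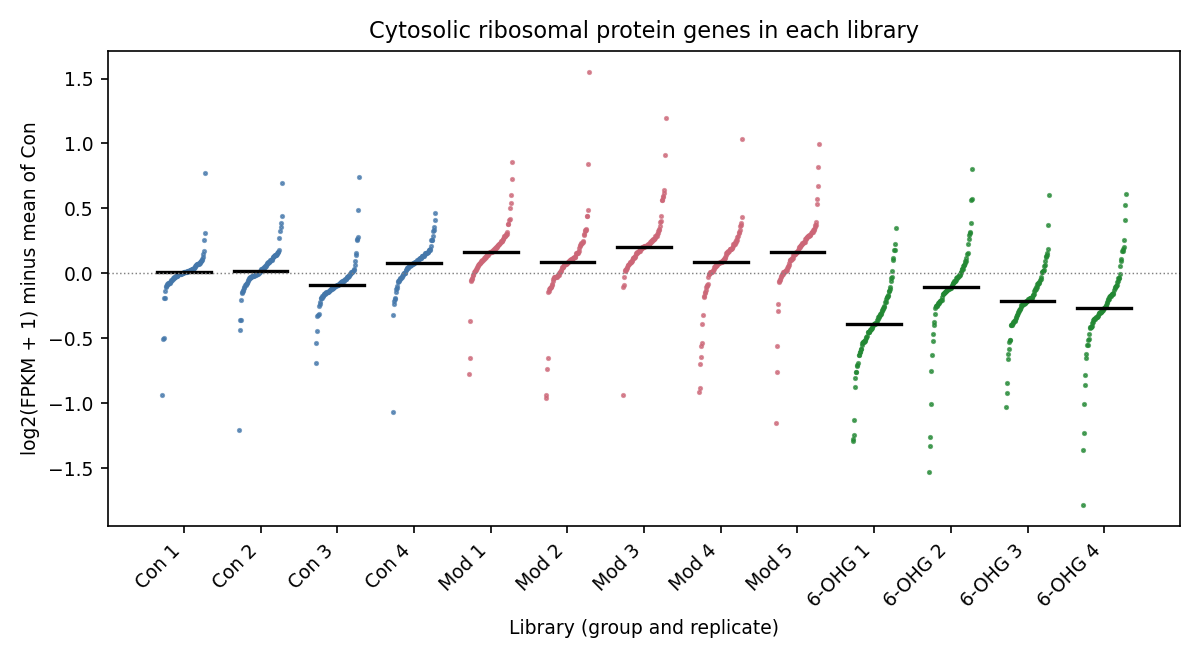
Each point is 1 of the 82 genes in 1 of the 13 libraries, as log2(FPKM + 1) minus the gene's mean over the Con libraries, and the black line is the library's median. The medians lie from -0.09 to 0.08 in Con, from 0.08 to 0.21 in Mod and from -0.39 to -0.11 in 6-OHG.

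The comparison of 6-OHG with Mod asks what differed between exposed brains with and without the compound. Differences are between group means of log2(FPKM + 1), which understates the fold of low genes, and a gene rose or fell where the Benjamini-Hochberg adjusted p over all genes tested was under 0.05 in limma. Of the 82 genes, 55 (67.1%) fell, where 8.35% of all genes tested fell. None rose in limma, at the adjusted or the unadjusted threshold, where 6.98% of all genes tested rose at the adjusted one. The median change was -0.38 against -0.02 over all genes, and 80 of the 82 changes were below 0. For 50 genes (61.0%) every 6-OHG library lay below every Mod library, against 8.34% of all genes tested. With the trend on exon length and GC content removed, 36 fell, against 4.57% of all genes, and the median was -0.26. Rescaled to equal sums, 35 fell, against 2.79% of all genes, and the median was -0.27. With the trend removed and the replicate number as a block, limma called 0 of the 82 genes. Over all genes tested it called 14 rises and 8 falls. The lowest adjusted p of the 82 genes was then 0.0588. At an unadjusted p under 0.05, 51 of the 82 were lower, but the share of all genes at that threshold was not counted. Of the 55 calls, 43 were kept in all 13 fits that each left out 1 library.

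**Figure D3:**
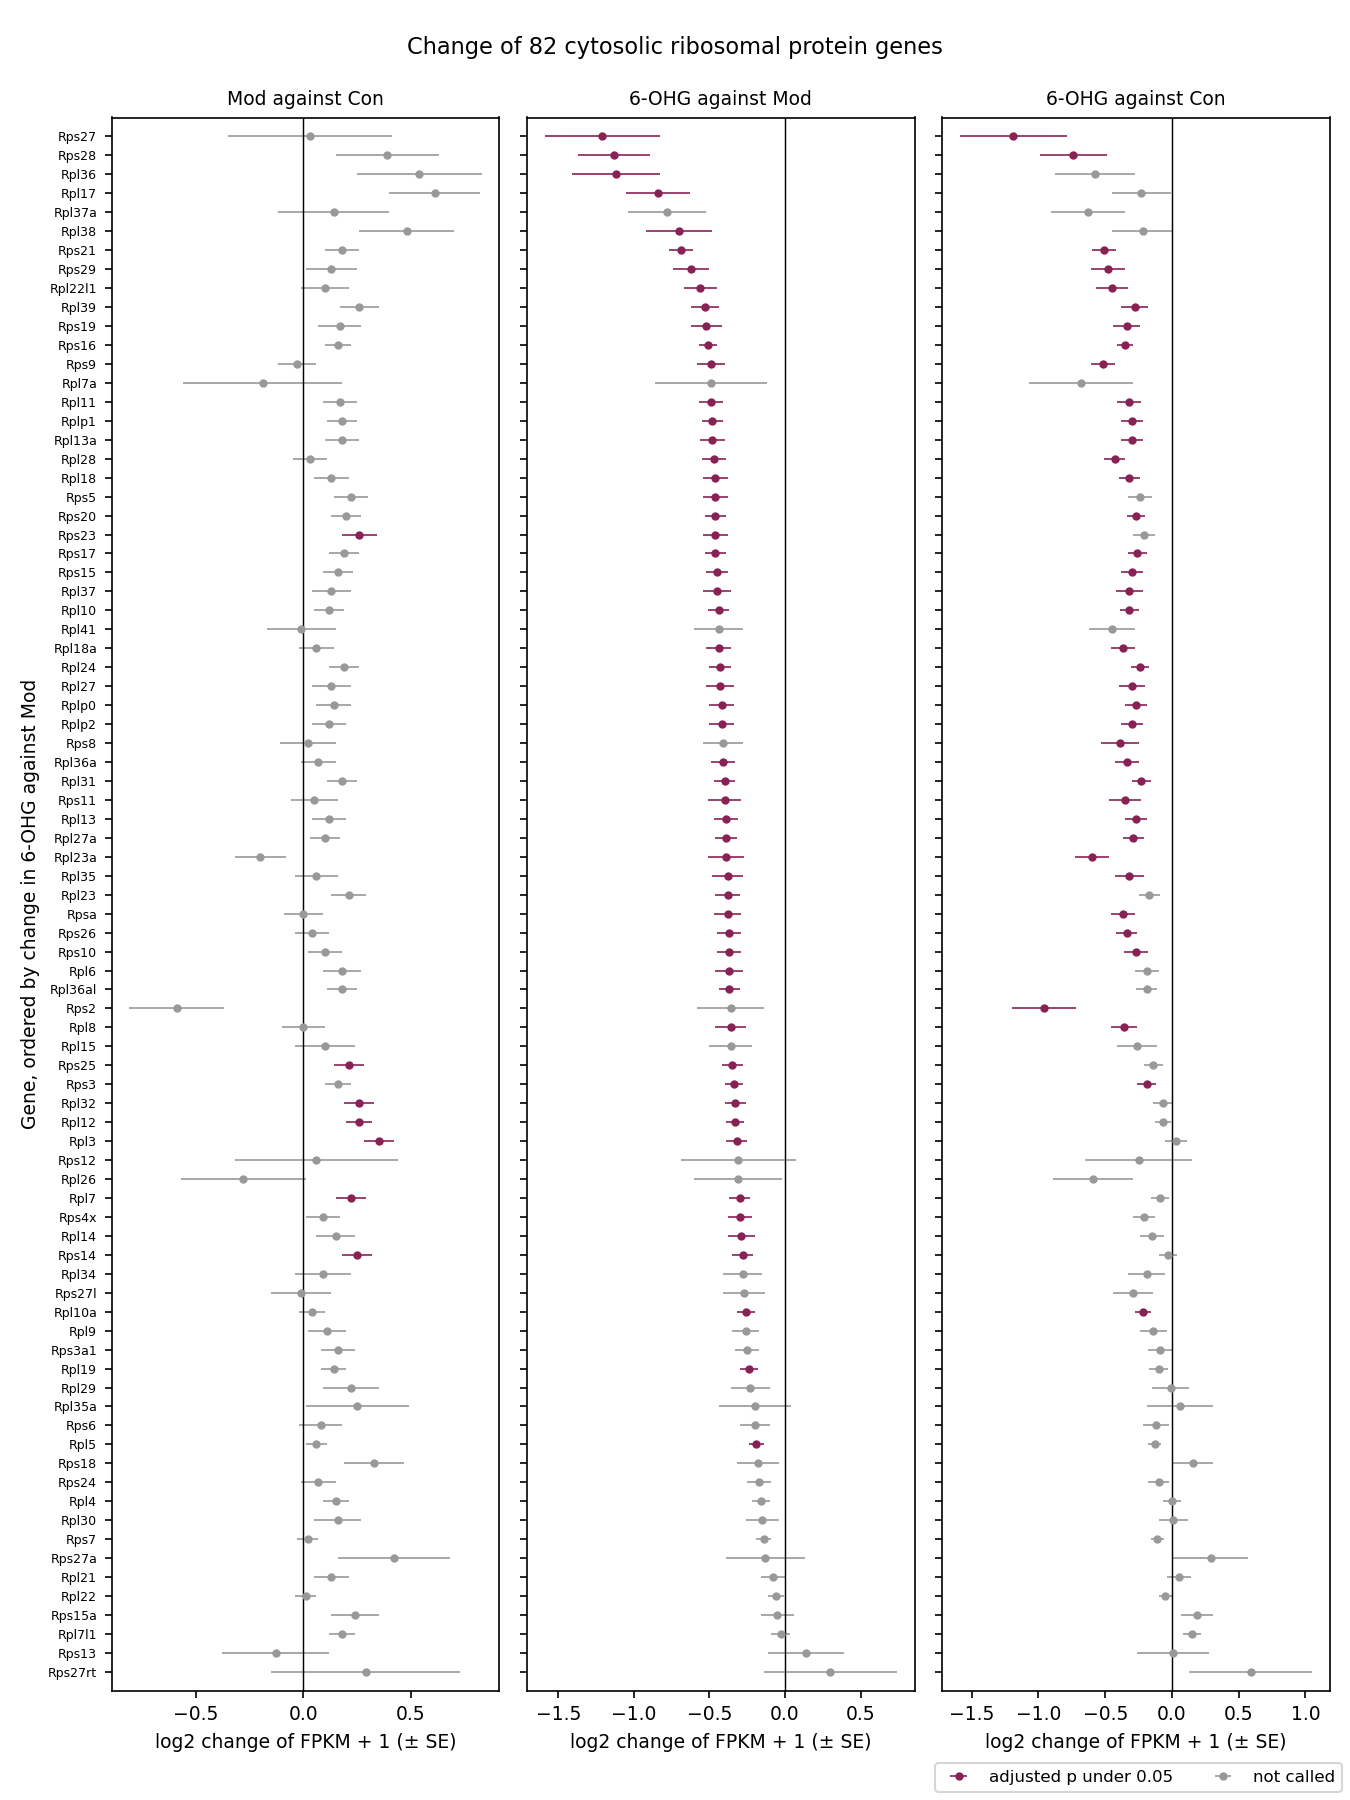
Log2 change of FPKM + 1 with its standard error for each of the 82 genes in the 3 comparisons, genes ordered by the change in 6-OHG against Mod, and maroon where the adjusted p was under 0.05. In 6-OHG against Mod 55 genes are maroon and all lie left of 0, compared with 7 for Mod against Con and 39 for 6-OHG against Con.

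The 3 stalk genes all fell with 6-OHG. They encode the flexible arm of the large subunit that recruits translation factors. Rplp1 stood at 309, 293, 332, 320 and 317 FPKM in Mod and at 204, 233, 231 and 231 in 6-OHG, with 289, 305, 242 and 275 in Con. Every 6-OHG library was below every Mod and Con library. It fell by 0.48 ± 0.07 (SE) on the log2 scale against Mod (adjusted p = 0.00175, limma) and 6-OHG stood at 71.5% of the Mod mean. Rplp0, the anchor of the stalk, went from 43.8 ± 3.13 to 32.6 ± 2.71 FPKM, a change of -0.42 ± 0.08 (adjusted p = 0.00399). Rplp2 went from 25.9 ± 1.52 to 19.1 ± 2.06 FPKM with the same change (adjusted p = 0.00417). For each of the 3 genes the groups did not overlap, and all 3 were called with the length and GC trend removed.

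In the small subunit, 20 of 33 genes fell against Mod and the median change was -0.37. Rps21 had the lowest adjusted p of the 6 genes with the largest falls. Its Mod libraries stood at 74.8, 69.6, 75.0, 67.8 and 65.7 FPKM and its 6-OHG libraries at 37.7, 43.1, 49.7 and 43.5. Con stood at 67.4, 65.1, 54.9 and 62.2 FPKM, overlapping Mod, and all 6-OHG libraries were below both. Rps21 fell by 0.69 ± 0.08 against Mod (adjusted p = 0.001) and by 0.51 ± 0.09 against Con (adjusted p = 0.000933), and both calls held in all 13 fits without 1 library. With its copies added, the changes were -0.44 and -0.30, both called. Rps15, a protein of the small subunit head, went from 275.5 ± 15.1 to 201.3 ± 18.7 FPKM (adjusted p = 0.00208), but its adjusted p was 0.0749 with the length and GC trend removed. Rpsa, which also serves as a laminin receptor, went from 82.5 ± 5.02 to 63.8 ± 8.91 FPKM, a change of -0.38 ± 0.09 (adjusted p = 0.0126). Rps4x, the X-linked form of a core protein, changed by -0.30 ± 0.08 (adjusted p = 0.0242), a call lost in 4 of the 13 fits, with an adjusted p up to 0.0711 without 6-OHG replicate 4.

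In the large subunit without the stalk, 32 of 46 genes fell and all 46 changes were below 0, with a median of -0.38. The largest fall was that of Rpl36. Its Mod libraries stood at 81.3, 75.0, 82.1, 60.5 and 94.4 FPKM and its 6-OHG libraries at 44.4, 17.7, 58.6 and 33.4, with 46.5, 69.9, 36.4 and 67.2 in Con. No 6-OHG library reached the lowest Mod library, and 6-OHG and Con overlapped. The change was -1.12 ± 0.29 (adjusted p = 0.0209), and the adjusted p was 0.0556 without 6-OHG replicate 4. With its 11 processed copies added, Rpl36 stood at 75.4 ± 1.91 FPKM in Con, 94.4 ± 5.02 in Mod and 63.8 ± 5.06 in 6-OHG. The mean coefficient of variation within groups was then 5.26% instead of 30%. On that sum the gene was higher in Mod than in Con by 0.32 ± 0.06 (adjusted p = 0.00258), and lower in 6-OHG than in Mod by a change of -0.56 ± 0.06 (adjusted p = 0.000688) and than in Con by one of -0.24 ± 0.06 (adjusted p = 0.013).

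Rpl38, a large subunit protein known from mouse mutants with skeletal patterning defects, stood at 49.1, 51.3, 55.8, 50.9 and 56.3 FPKM in Mod. In 6-OHG it stood at 32.1, 46.3, 19.3 and 36.6 FPKM, all below Mod and spread over more than the Mod range. It fell by 0.70 ± 0.22 (adjusted p = 0.0451), and this call was lost in 9 of 13 fits without 1 library, with an adjusted p up to 0.107 without 6-OHG replicate 3, and with the length and GC trend removed (0.197). Rpl17, which lines the exit tunnel, stood at 23.9, 53.6, 27.0, 19.8 and 23.2 FPKM in Mod and at 13.8, 16.9, 14.9 and 14.5 in 6-OHG. Mod replicate 2 lay far above the others of its group. The change was -0.84 ± 0.21 (adjusted p = 0.0186), with 8.74% of the summed value at its own locus, and with copies added it was -0.35 ± 0.09 (adjusted p = 0.0212). With the length and GC trend removed, the adjusted p of Rpl17 was 0.0552 and that of Rpl36 0.0683.

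Rps28, a protein of the small subunit near the mRNA exit, was lower in 6-OHG at its own locus but not with its copies. At chr17:33819027-33824562 its Mod libraries stood at 15.6, 10.9, 14.7, 9.40 and 11.3 FPKM and its 6-OHG libraries at 3.24, 9.27, 6.02 and 3.28. The groups did not overlap, the highest 6-OHG library standing just below the lowest of Mod. The change was -1.13 ± 0.24 (adjusted p = 0.00826). Only 19.8% of the summed value lay at this locus. With the 10 copies added, Rps28 stood at 45.3 ± 8.35 FPKM in Con, 46.2 ± 7.37 in Mod and 48.5 ± 15.4 in 6-OHG, and the change was 0.02 ± 0.21 (adjusted p = 0.969).

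Rps27 and Rps27rt stood high in different libraries. Rps27 encodes a zinc-binding protein of the small subunit and lies at chr3:90212522-90213651. Rps27rt lies at chr9:114982366-114982739, and its transcript aligned to that of Rps27 at 100% identity over 341 bases. Rps27 stood at 27.4, 45.2, 20 and 23.2 FPKM in Con, at 50.7, 50.1, 13.9, 14.2 and 33.8 in Mod and at 10.8, 10.9, 14.9 and 10.1 in 6-OHG. Rps27rt stood at 103, 36.7, 121 and 119 FPKM in Con, at 66.4, 44.4, 198, 177 and 125 in Mod and at 110, 151, 131 and 132 in 6-OHG. The Mod libraries with the highest Rps27, replicates 1 and 2, had the lowest Rps27rt, and so did Con replicate 2 within its group. Rps27 fell by 1.21 ± 0.38 against Mod (adjusted p = 0.0479) with overlapping groups, a call lost in 10 of 13 fits without 1 library (adjusted p up to 0.109 without 6-OHG replicate 4) and with the length and GC trend removed (0.112). Rps27rt changed by 0.30 ± 0.44 (adjusted p = 0.691). The sum of both loci was 124 ± 28.5 FPKM in Con, 155 ± 49.0 in Mod and 142 ± 16.8 in 6-OHG, differences smaller than the spread between Mod libraries, and the log2 ratio of the 6-OHG to the Mod mean was -0.12.

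**Figure D4:**
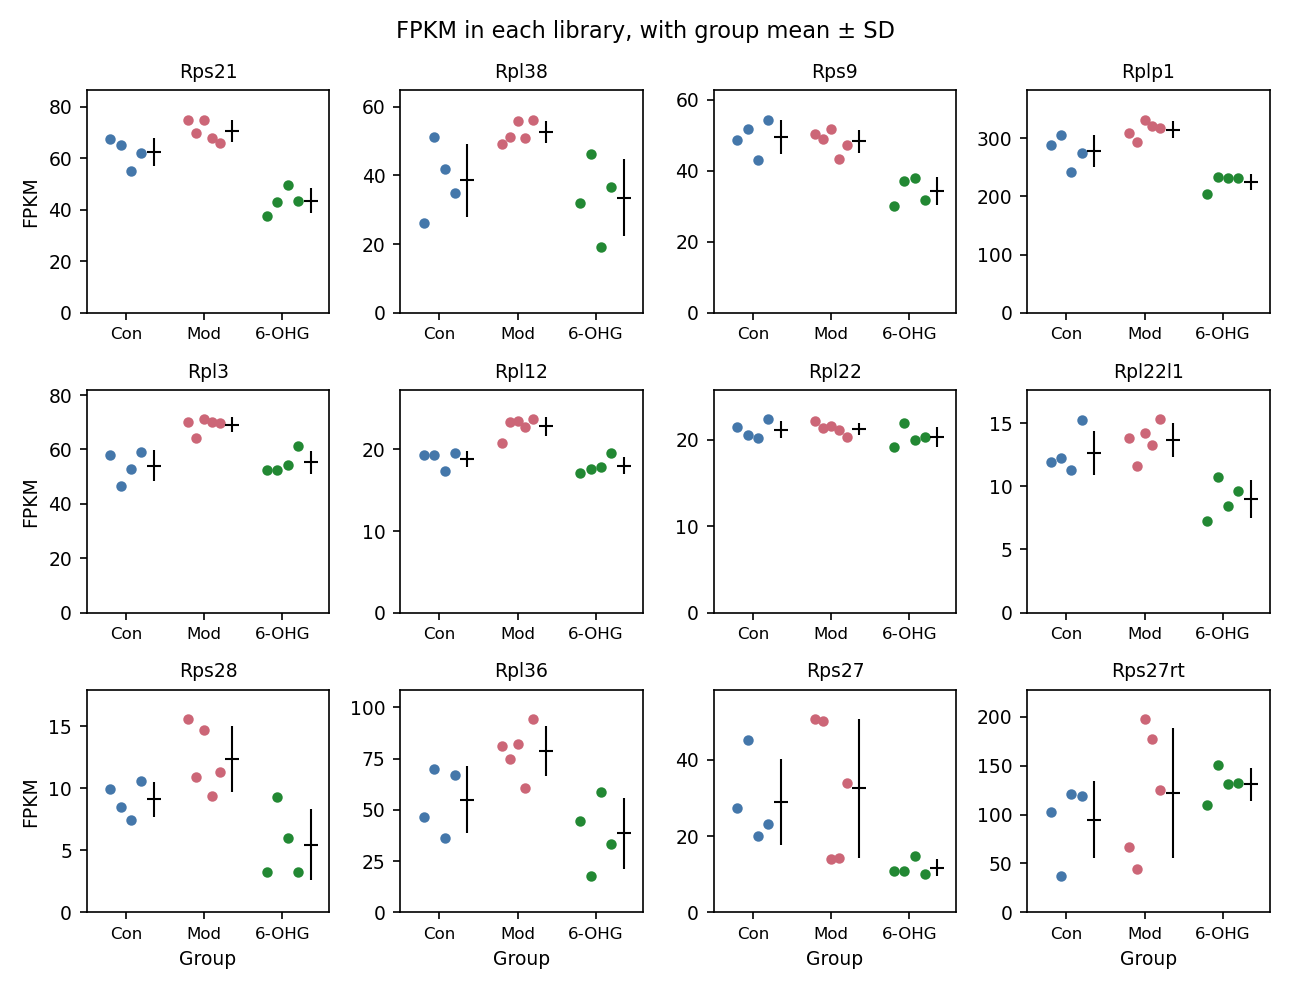
FPKM of 12 genes in each library (points) with the group mean ± SD beside them, for 4 Con, 5 Mod and 4 6-OHG libraries, each axis starting at 0. Rps21 and Rplp1 show 6-OHG libraries below all others, Rpl3 and Rpl12 show Mod above both other groups, Rpl22 shows groups at 21.2, 21.3 and 20.4 FPKM, and Rps27 and Rps27rt spread widely in Mod.

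The comparison of Mod with Con asks what differed after altitude exposure alone. Of the 82 genes 7 (8.54%) rose, a smaller share than the 14.0% of all genes tested that rose, and none fell in limma, where 9.81% of all genes did. At an unadjusted p under 0.05, 27 were higher and 1 was lower, but the share of all genes at that threshold was not counted. The changes were small and mostly in one direction, with 74 of 82 above 0 and a median of 0.14 against 0.01 over all genes. Groups did not overlap for 15 genes (18.3%), all higher in Mod, against 13.5% of all genes. With the length and GC trend removed, 5 rose, against 15.0% of all genes. The count depended on single libraries: it was 2 without Con replicate 3, 4 without Con replicate 1 or Mod replicate 5, 11 without 6-OHG replicate 1 and 13 without 6-OHG replicate 2. Of all genes tested, 10.2%, 11.5%, 12.3%, 13.6% and 15.2% rose in those fits, in that order. The 6-OHG libraries enter only through the shared estimate of the spread. Rescaled to equal sums, 2 rose, against 7.87% of all genes, and the median was 0.07.

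The 7 genes that rose were Rpl3, Rpl12, Rpl32, Rps14, Rpl7, Rps23 and Rps25. Rpl3, which lies beside the peptidyl transferase centre, stood at 58.0, 46.5, 52.7 and 59.1 FPKM in Con and at 70.2, 64.1, 71.1, 70.1 and 69.8 in Mod. All Mod libraries lay above all Con libraries. It rose by 0.35 ± 0.07 (adjusted p = 0.00461), and by 0.26 ± 0.09 with copies added (adjusted p = 0.0451). In 6-OHG it stood at 52.6, 52.5, 54.4 and 61.3 FPKM, and its change against Mod was -0.32 ± 0.07 (adjusted p = 0.0128), or -0.25 ± 0.09 with copies added (adjusted p = 0.0722). Rpl12, at the base of the stalk, stood at 19.3, 19.3, 17.4 and 19.5 FPKM in Con, at 20.8, 23.4, 23.5, 22.7 and 23.7 in Mod and at 17.1, 17.6, 17.8 and 19.6 in 6-OHG. Mod lay above both other groups. It rose by 0.26 ± 0.06 (adjusted p = 0.00681), but with copies added, which hold most of its summed value, the change was 0.04 ± 0.09 (adjusted p = 0.809), and -0.16 ± 0.09 for 6-OHG against Mod (adjusted p = 0.24). Rpl3 and Rpl12 were the 2 genes called in all 13 fits without 1 library.

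The other 5 rises were called in fewer fits. Rpl32 went from 79.9 ± 3.70 to 96.1 ± 6.14 FPKM, a rise of 0.26 (adjusted p = 0.0165), with an adjusted p of 0.0527 without Con replicate 3. Rps14, a protein of the small subunit platform whose human gene is linked to a form of anaemia, went from 45.3 ± 2.86 to 54.1 ± 3.55 FPKM, a rise of 0.25 (adjusted p = 0.0179, and 0.0628 without Con replicate 3). Rpl7 rose by 0.22 (adjusted p = 0.0317), Rps23, a protein of the decoding centre, by 0.26 (0.0336) and Rps25 by 0.21 (0.0461). The calls of these 3 were lost in 5, 6 and 10 of the 13 fits, with adjusted p-values up to 0.105 and 0.129 for Rpl7 and Rps25 without Con replicate 3 and 0.103 for Rps23 without Con replicate 2. Rps25 stands outside the 6 largest rises and is named because the list is short.

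The comparison of 6-OHG with Con sets the treated, exposed brains against the normal condition. It shares its libraries with both other comparisons, so their values are given side by side and not as separate evidence. Of the 82 genes 39 (47.6%) fell, where 14.4% of all genes tested did. None rose in limma, where 16.3% of all genes tested did. At an unadjusted p under 0.05, 1 was higher, with no share of all genes counted at that threshold. The median change was -0.26 against 0.00 over all genes. Groups did not overlap for 25 genes (30.5%), all lower in 6-OHG, against 12.5% of all genes. With the length and GC trend removed, 21 fell, against 13.7% of all genes. Without 6-OHG replicate 1 the count was 23, without replicate 4 it was 25 and with quantile normalization it was 18. Of all genes tested, 11.3%, 12.4% and 13.6% fell in these fits. Of the 39 calls, 23 held in all 13 fits without 1 library.

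Of the 6 largest falls against Con, those of Rps2, Rpl23a, Rps9 and Rps21 were called in all 13 fits without 1 library. Rps9, which helps to set decoding fidelity, stood at 48.6, 51.8, 43.1 and 54.4 FPKM in Con, at 50.2, 48.8, 51.8, 43.4 and 47.1 in Mod and at 30.1, 37.2, 38.0 and 31.7 in 6-OHG. The 6-OHG libraries lay below all others, and Con and Mod overlapped. Rps9 fell by 0.52 ± 0.09 against Con (adjusted p = 0.00117) and by 0.49 ± 0.09 against Mod (adjusted p = 0.00348), with 95.6% of its summed value at its own locus. Rpl23a, at the mouth of the exit tunnel, stood at 136, 135, 125 and 149 FPKM in Con, at 131, 126, 133, 93.3 and 111 in Mod and at 79.7, 114, 90.7 and 78.4 in 6-OHG. Its 6-OHG libraries lay below Con but not below all of Mod. It fell by 0.60 ± 0.13 against Con (adjusted p = 0.00432) and was also called against Mod (adjusted p = 0.0462), a call lost in 10 of the 13 fits (up to 0.13 without 6-OHG replicate 4), and -0.40 ± 0.07 with copies added (adjusted p = 0.00444).

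Rps2 fell by 0.96 ± 0.24 against Con (adjusted p = 0.00909), with 13.9 ± 1.58 FPKM in Con, 9.31 ± 3.81 in Mod and 6.83 ± 2.09 in 6-OHG, but with 2.66% of its summed value at its own locus. With copies added the change was -0.37 ± 0.09 (adjusted p = 0.00732). Its Mod libraries stood at 7.64, 8.43, 15.7, 9.06 and 5.67 FPKM, and without Mod replicate 3 it was called lower in Mod than in Con (-0.79, adjusted p = 0.0087), the only such call for any of the 82 genes in the fits run. Rps27 fell by 1.19 ± 0.40 against Con (adjusted p = 0.0395), a call lost in 5 of the 13 fits with an adjusted p up to 0.111 without Con replicate 2. Rps28 fell by 0.74 ± 0.25 (adjusted p = 0.0404), lost in 6 fits with up to 0.117 without 6-OHG replicate 1, and with copies added its change was 0.05 ± 0.22. Of the stalk genes, Rplp1 and Rplp2 fell by 0.30 each (adjusted p = 0.0102 and 0.0132) and Rplp0 by 0.27 (0.0203, and 0.0606 without Con replicate 2). With the length and GC trend removed, only Rplp2 of the 3 was called, at an adjusted p of 0.0349.

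Several of the genes have a paralog. Rpl22 and Rpl22l1 encode alternative forms of one large subunit protein, and Rpl22 protein is known to repress the Rpl22l1 message. Their transcripts aligned at 74.6% identity over 299 bases. Rpl22 stood at 21.5, 20.6, 20.2 and 22.4 FPKM in Con, at 22.2, 21.4, 21.6, 21.1 and 20.3 in Mod and at 19.2, 22.0, 20 and 20.3 in 6-OHG. These ranges overlap throughout, and the change against Mod was -0.06 ± 0.05 (adjusted p = 0.462). Rpl22l1 stood at 11.9, 12.2, 11.3 and 15.2 FPKM in Con, at 13.8, 11.6, 14.2, 13.3 and 15.3 in Mod and at 7.27, 10.7, 8.41 and 9.65 in 6-OHG. Its 6-OHG libraries lay below all others, and it fell by 0.56 ± 0.11 against Mod (adjusted p = 0.00599) and 0.45 ± 0.12 against Con (adjusted p = 0.0105). With the copies of Rpl22l1 added, the adjusted p-values were 0.0549 and 0.19. The difference between these 2 paralogs was not tested.

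Rpl36a and Rpl36al, which encode nearly the same protein from 2 loci and aligned at 87.7% over 332 bases, both fell against Mod, by 0.41 ± 0.08 and 0.37 ± 0.07 (adjusted p = 0.00737 and 0.00656). Rpl7 fell by 0.30 ± 0.07 against Mod (adjusted p = 0.00972), whereas its distant relative Rpl7l1 stood at 10.6 ± 0.401 FPKM in Mod and 10.4 ± 1.06 in 6-OHG, with a change of -0.03 ± 0.06 (adjusted p = 0.794). Against Con, Rpl7l1 was called higher in 6-OHG in 3 of the 30 other fits, by 0.20 in each: with equal sums over nuclear genes, with the same scaling without ribosomal protein genes, and without 6-OHG replicate 3. Rpl10 and Rpl39, whose paralogs Rpl10l and Rpl39l are known from testis, fell by 0.44 ± 0.07 and 0.53 ± 0.09 against Mod (adjusted p = 0.00212 and 0.00323) and by 0.32 and 0.28 against Con (0.00636 and 0.0466). The call of Rpl39 against Con was lost in 11 of the 13 fits without 1 library, with an adjusted p up to 0.117 without 6-OHG replicate 1, with equal sums (0.0679) and with the length and GC trend removed (0.0877). Rps27l, the p53-responsive relative of Rps27, stood at 7.01 ± 0.767 FPKM in Mod and 5.78 ± 1.71 in 6-OHG and was not called (adjusted p = 0.22). Rps4l, a transcribed copy of Rps4x outside the 82 genes, stood at 4.74 ± 1.62, 6.18 ± 1.26 and 4.75 ± 2.09 FPKM in Con, Mod and 6-OHG with overlapping libraries. Rps27a, which encodes ubiquitin fused to a ribosomal protein, ranged from 15.4 to 44.3 FPKM in Con and was not called in any comparison. Its own locus held 22.9% of its summed value.

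Of the 8 genes with the highest and lowest means, Rplp1 and Rps15 have been described. Rpl4 stood at 176 ± 6.38, 196 ± 9.54 and 176 ± 13.8 FPKM in Con, Mod and 6-OHG and was not called against Mod (-0.16 ± 0.06, adjusted p = 0.109). Rpl19 fell by 0.24 ± 0.06 against Mod (adjusted p = 0.0204), with an adjusted p of 0.0645 without 6-OHG replicate 4 and of 0.278 with the length and GC trend removed. Rpl29, Rpl21, Rpl35a and Rpl26 were not called at their own loci in any comparison. With copies added, all 4 were called lower in 6-OHG than in Mod, with changes of -0.35, -0.27, -0.48 and -0.38 and adjusted p-values of 0.0039, 0.0421, 0.0029 and 0.00489. Over all 82 genes with copies added, 61 fell against Mod, 39 fell against Con and 12 rose in Mod, where 8.41%, 14.4% and 14.0% of all genes did, so that the rises were at a share near that of all genes. The median coefficient of variation within groups was 8.03% instead of 8.88%. This summing was chosen after the values were seen.

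The median change was close among genes with much and with little of their value at their own locus. Of the 19 genes with at least 90% there, 14 fell against Mod with a median of -0.38. Of the 34 genes with 50% to 90% it was 28, with a median of -0.41, and of the 29 with under 50% it was 13, with a median of -0.36. Of the 213 processed copies with a mean of at least 1 FPKM, 76 (35.7%) were called lower and 1 higher, with a median of -0.29, where 8.35% of all genes tested fell. With the length and GC trend removed, 20 were lower and 3 higher, with a median of -0.14, where 4.57% of all genes fell. The median exon length of these copies was 483 bases. Copies share sequence with their gene and with each other and are not separate observations.

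Exon length went with the size of the fall, in these genes and in others. Under 1 kb, 9 of 12 ribosomal protein genes fell against Mod (75.0%, median -0.43), as did 40.3% of 248 other protein-coding genes (median -0.35). From 1 to 2 kb the shares were 73.5% of 34 and 24.6% of 1189, with medians of -0.42 and -0.21. From 2 to 3 kb they were 60.0% of 20 and 13.2% of 1724, with medians of -0.33 and -0.11. At 3 kb and over they were 56.2% of 16 and 3.53% of 8784, with medians of -0.29 and 0.03. Ribosomal protein genes thus stood lower than other protein-coding genes of the same length class in each of the 4 classes, and the gap between the medians was smallest for the shortest genes. These classes rest on the union of annotated exons, so the length of the message was not matched. The removal of the length and GC trend rests on the same exon length. The median of -0.35 for other genes under 1 kb was near the -0.38 of all 82 genes. Across the 82 genes the change correlated with log2 exon length at Pearson r = 0.33 (Spearman rho = 0.36) and with GC content at r = -0.31, as a description of points that share libraries. RNA quality was not given in the sources used here, and its part in the length trend was not tested.

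**Figure D5:**
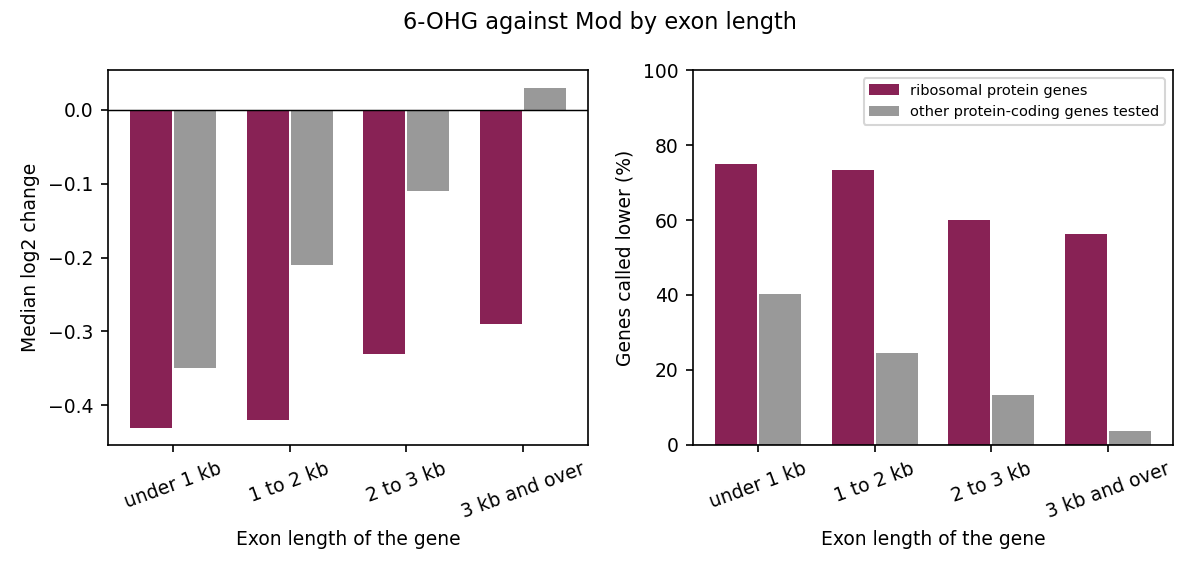
Median log2 change (left) and percent of genes called lower (right) in 6-OHG against Mod for ribosomal protein genes (maroon) and other protein-coding genes tested (grey) in 4 classes of exon length. Grey medians rise from -0.35 to 0.03 with length, while those of the ribosomal protein genes stay between -0.43 and -0.29.

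Genes with and without the pyrimidine run had like changes. In 6-OHG against Mod, 31 of the 48 genes with such a run fell, with a median of -0.38. Of the 14 without one 9 fell, with a median of -0.36, where 8.35% of all genes tested fell. The median rises of Mod over Con were 0.12 and 0.16.

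Other parts of the ribosome that the symbol rule leaves out fell as well. Fau, which encodes a small subunit protein fused to a ubiquitin-like one, stood at 109, 107, 111, 95.6 and 110 FPKM in Mod and at 66.4, 82, 74.1 and 70.7 in 6-OHG. It rose by 0.28 ± 0.08 in Mod against Con (adjusted p = 0.0172) and fell by 0.54 ± 0.08 in 6-OHG against Mod (adjusted p = 0.00157). Rack1, a scaffold on the small subunit, went from 21 ± 0.726 in Mod to 17.0 ± 1.13 FPKM in 6-OHG. It fell by 0.29 ± 0.06 (adjusted p = 0.0101), and was not called in Mod against Con (-0.08 ± 0.06, adjusted p = 0.423). Fau and Rack1 belong to a list of 24 further TOP genes. In 6-OHG against Mod 13 of the 24 fell, against 8.35% of all genes tested, and none rose, with a median of -0.24. With the length and GC trend removed 8 fell, against 4.57% of all genes, with a median of -0.18. In Mod against Con 6 of the 24 rose, against 14.0% of all genes tested, and none fell. With the trend removed 6 rose, against 15.0% of all genes. Eif4b, an initiation factor, rose in Mod against Con by 0.44 ± 0.06, from 41.4 ± 2.72 to 56.4 ± 2.38 FPKM (adjusted p = 0.000223). It stood at 55.8 ± 2.73 in 6-OHG.

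Among genes that make and regulate ribosomes, calls went in both directions, except that those for mTOR complex signalling and TOP control were all rises. In 6-OHG against Mod, 6.98% of all genes tested rose and 8.35% fell. Of 45 ribosome biogenesis factors, 2 rose and 2 fell in that comparison (4.44% each), with a median of 0.00. Nop10 and Fbl, parts of the snoRNA particles that modify ribosomal RNA, fell by 0.44 and 0.24 (adjusted p = 0.00777 and 0.017), and Utp20 and Ddx21 rose by 0.31 and 0.34 (0.00804 and 0.0174). Of 15 genes of RNA polymerase I and its factors, 2 rose and 1 fell. Of 24 genes of mTOR complex signalling and TOP control, 4 (16.7%) rose and none fell: Deptor by 0.32, Sesn3 by 0.33, Larp1 by 0.23 and Rptor by 0.18. Sesn3 and Deptor encode restraints of mTOR, Rptor its scaffold and Larp1 the TOP-binding protein, and with the length and GC trend removed none of the 24 was called. Of 33 initiation and elongation factors outside the TOP list, 3 rose and 3 fell.

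In Mod against Con, the host genes of small nucleolar RNAs rose in 10 of 15 cases with none falling, against 14.0% of all genes tested. Their own transcripts carry TOP starts, and their median change was 0.30. With the length and GC trend removed 10 rose, against 15.0% of all genes. Zfas1 went from 6.21 ± 0.625 to 12.5 ± 0.839 FPKM (0.91 ± 0.09, adjusted p = 2.63e-05), Snhg3 from 2.22 ± 0.744 to 4.24 ± 0.354 (adjusted p = 0.00154) and Gas5 from 13.1 ± 1.01 to 17.8 ± 1.12 (adjusted p = 0.00184). Set against Mod, 5 of the 15 fell in 6-OHG, against 8.35% of all genes tested, with a median of -0.19. With the trend removed only 1 fell, against 4.57% of all genes, and the median was -0.14.

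Other lists of short, abundant messages were set beside the 82 genes in 6-OHG against Mod, where 8.35% of all genes tested fell. Of 76 nuclear-encoded respiratory chain subunits 56 fell with a median of -0.34, and of 78 mitochondrial ribosomal protein genes 26 with -0.20. Of 32 proteasome subunits 8 fell with -0.13, and none of these lists held a rise. With the length and GC trend removed, 39, 13 and 5 fell, in that order, beside 36 of the 82 genes and 4.57% of all genes. The cytosolic ribosomal protein genes and the respiratory chain subunits have median exon lengths of 1776 and 1737 bases. Those of the mitochondrial ribosomal protein genes and the proteasome subunits are longer, at 2394 and 2814 bases. Between Mod and Con the respiratory chain subunits had 3 rises, 2 falls and a median of -0.01, beside 7, 0 and 0.14 for the cytosolic ribosomal protein genes. No test of the difference between lists was made.

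Some markers of cell types and brain regions moved in the same comparison. In 6-OHG against Mod, 2 of 4 hypothalamic markers, 1 of 5 erythroid markers and 1 of 5 oligodendrocyte precursor markers fell, and 1 endothelial marker rose and 1 fell of 7. Summed hypothalamic markers ranged from 3.69 to 72.3 FPKM in Con, 60.7 to 120 in Mod and 1.91 to 38.0 in 6-OHG, erythroid ones from 108 to 357, 109 to 520 and 40.9 to 176, and those of oligodendrocyte precursors from 73.0 to 86.0, 40.3 to 63.1 and 29.4 to 51.1. The 7 oligodendrocyte markers and the 7 microglia markers all had differences below 0 without a call, with sums of 1140 to 1540 FPKM in Con, 766 to 1820 in Mod and 627 to 1140 in 6-OHG for oligodendrocytes and of 93.3 to 106, 75.6 to 89.2 and 61.1 to 89.2 for microglia. None of the neuron, astrocyte, oligodendrocyte, microglia, pericyte, choroid plexus, striatal or liver markers tested was called in that comparison. All 6 striatal, 5 erythroid, 4 hypothalamic, 3 choroid plexus and 5 liver markers tested also had differences below 0, as had 5 of 8 neuron and 3 of 7 astrocyte markers. The choroid plexus and liver lists share the gene Ttr, so their counts and sums are not separate. Summed striatal markers ranged from 151 to 283 FPKM in Con, 69.5 to 377 in Mod and 35.1 to 324 in 6-OHG. Those of choroid plexus ranged from 282 to 696, 48.0 to 253 and 4.12 to 362. From Con to Mod, 3 of 4 hypothalamic markers rose, 4 of 7 endothelial markers rose and 2 fell, and 3 of 5 oligodendrocyte precursor, 4 of 5 liver, 2 of 7 astrocyte, 1 of 7 oligodendrocyte, 1 of 7 microglia and 1 of 8 neuron markers fell, while of 5 pericyte markers 2 rose and 2 fell. Summed endothelial markers ranged from 70.1 to 85.8 FPKM in Con and from 59.0 to 72.8 in Mod. The part of these differences in those of the ribosomal protein genes was not tested. Without Con replicate 4 and 6-OHG replicate 2, the 2 libraries least like their groups in earlier results of these data, 61 genes fell in 6-OHG against Mod, 38 fell in 6-OHG against Con and 18 rose in Mod against Con, where 12.1%, 14.7% and 16.5% of all genes did.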

How the data were processed

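RNA was extracted from brain with Trizol and sequenced as read pairs on an Illumina NovaSeq, per the labels' protocols. The authors deposited 1 table of FPKM values for 37636 gene IDs in 13 libraries, and no column was left unused. The submitters' processing notes name DESeq2, edgeR, featureCounts 1.5.0-p3, HISAT2 2.2.1, cutadapt 1.9, StringTie 2.1.6 and FastQC, and the builds GRCm38 and mm10, without roles. The annotation release, the use of strand, the treatment of reads matching several loci and the depth are not given in the sources used here. FPKM keeps no read counts, so no count model was run.

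Symbols, lengths and positions came from GENCODE M21, which held 37499 of the IDs and lacked 137. The 13905 genes whose mean reached 1 FPKM were fitted as log2(FPKM + 1) over all 3 groups with limma 3.58.1 (R 4.3.3), variances moderated with a mean trend, and p-values were adjusted by Benjamini-Hochberg over all genes tested, with a threshold of 0.05. In an alternative, each library's trend on exon length and GC content, fitted with natural splines, was removed. Processed copies were matched with blastn 2.17.0 at 85% identity or more over at least 70% of the copy. Summing values with copies was chosen after the values were seen. Promoter windows came from RefSeq tables. The limma fits were tested on simulated data. Plotting used matplotlib 3.10.9 (Python 3.11.15). In all, 30 other settings were run, 13 of them leaving out 1 library.

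The genes and the lists were chosen with earlier results of these data known. Genes named are the 6 largest rises and falls called in each comparison, the stalk genes, Rps27a, Rpsa and genes with paralogs, the 4 highest and 4 lowest means, genes called against the common direction, and up to 4 genes with the smallest p of each further list.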

Additional observations from a re-analysis of the deposited data

Results flagged for a closer look

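Within groups of 4 or 5 libraries, 11 of 108 groups tested held a library far from the others, over 34 named genes, the sum of all 82 genes and the sum of their copies. For a single group chance gives this about 1 time in 20, and the groups share libraries. In Con, replicate 3 had 17.4 FPKM of Rpl12 beside 19.3 to 19.5 in the others, and replicate 1 had 0.815 FPKM of Rpl26 beside 3.23 to 3.37. In Mod, replicate 2 stood apart 4 times, with 53.6 FPKM of Rpl17 beside 19.8 to 27.0, 64.1 of Rpl3 beside 69.8 to 71.1, 85.3 of Rpl32 beside 97.8 to 101, and 4250 FPKM for the sum of all copies beside 4680 to 4820. Mod replicate 3 had 9.92 FPKM of Rpl7l1 beside 10.7 to 10.9. In 6-OHG, replicate 1 had 204 FPKM of Rplp1 beside 231 to 233 and 16.1 of Rplp2 beside 19.9 to 20.5, replicate 3 had 14.9 of Rps27 beside 10.1 to 10.9, and replicate 4 had 37.3 of Rps27a beside 29.2 to 30.1.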

How the results depend on the processing

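Counts of ribosomal protein genes are given here beside the share of all genes tested that went the same way. In 6-OHG against Mod, where 55 fell, the count was 35 (median -0.27) with equal sums, against 2.79%. It was 36 (-0.26) with the length and GC trend removed, against 4.57%, and 36 (-0.27) with copies added and the trend removed, against 4.52%. Leaving out 1 library gave 46 to 61, against 5.44% to 9.51%. With the replicate block it was 38, against 3.42%, and with the trend removed and the replicate block 0 (median -0.28), against 0.0575%. In 6-OHG against Con, where 39 fell, it was 25 with equal sums, against 10.5%, and 18 (median -0.16) with quantile normalization, against 13.6%. It was 21 with the trend removed, with or without copies added, against 13.7%. With the trend removed and the replicate block it was 13, against 10.3%, and with the replicate block alone 28, against 10.9%. Leaving out 1 library gave 23 to 45, against 10.9% to 15.3%. In Mod against Con, where 7 rose, it was 4 with no filter, with the replicate block and with the trend removed and the replicate block, against 4.98%, 8.97% and 9.68%. It was 2 with equal sums, against 7.87%, and 12 with quantile normalization or copies added, against 13.0% and 14.0%. It was 27 with sample weights, against 18.4%, and 13 with only the 2 groups compared, against 14.2%. Without Con replicate 4 and 6-OHG replicate 2 it was 18, against 16.5%. Leaving out 1 library gave 2 to 13, against 10.2% to 15.2%. The causes were not tested. Replicate numbers did not pair the libraries: deviations of same-numbered libraries correlated between -0.483 and 0.3464, and 2 of 12 correlated best with their own number. Among changes called in either fit, the sign turned only with copies added: Rps28 against Mod was 0.02, and 0.13 with the trend also removed, Rps28 against Con 0.05 and 0.12, and Rpl35a against Con, not called at its own locus or with copies alone, -0.25 with copies added and the trend removed. Of the other values of named genes, 2766 stayed on the same side of the threshold, uncalled changes near 0 that turned sign included, 217 lost a call and 60 gained one. The unknown depth and read assignment limit what a level at 1 locus shows, most for the 29 genes with under 50% of the summed value at their own locus.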
